A study of Mus musculus with 4 samples.

Results

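The genes examined here drive cells from G1 into S phase and copy their DNA. They were a list of 59 genes, taken as given by symbol, and each was read at its brightest probe, the one whose mean of the 4 arrays was highest. Of the 59 genes, 58 had a named probe among the 16637 genes of the arrays, and Gins2, a subunit of the GINS complex, was not analysed here. They were ordered by step into G1 cyclins, kinases and E2F factors, the MCM helicase subunits, origin recognition and licensing, origin firing, the sliding clamp and its loader, polymerases and fork processing, nucleotide supply, and chromatin assembly.

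Whole mandibles of C57BL/6 mouse embryos at stage E11.5 were profiled on 4 one-colour arrays labelled with Cy5, 1 RNA sample on each. In the Bmp4 OE group (2 arrays) the mandibles overexpressed Bmp4, the gene of a secreted growth factor of the bone morphogenetic protein (BMP) family, from a conditional system that had been induced with doxycycline for 24 hours. In the control group (2 arrays) the mandibles were wild-type. The labels name neither the driver of the transgene nor the cells that express it, and they do not say whether the controls received doxycycline, so drug, genotype and Bmp4 cannot be told apart as sources of a difference. They also do not say whether arrays of a group came from separate embryos, so the spread behind the p-values is that of these samples and may be technical. The values were deposited as log2 intensities that share 1 distribution, with a median of 7.95, a lower quartile of 6.79 and a maximum of 16 on each array. As a check of the labels, Bmp4 read 15.27 and 15.31 in Bmp4 OE mandibles, against 11.96 and 12.07 in control mandibles (log2 fold change 3.28 ± 0.11, SE, adjusted p = 0.00137, limma). Some markers of the labelled tissue were bright in both groups and others were dim. The mesenchymal genes Pdgfra and Prrx1 were at 13.88 and 13.86 and at 12.81 and 12.98 (mean log2 intensity of Bmp4 OE and of control mandibles). The epithelial cadherin gene Cdh1 was at 12.28 and 11.37. The mesenchymal genes Dlx5 and Hand2 were at 8.67 and 8.56 and at 8.555 and 8.575. The epithelial gene Grhl2 lay near the median, with 7.67 and 8.06 in Bmp4 OE arrays, against 7.6 and 7.4 in control arrays. Of 12 mesenchyme markers, 0 lay below the lower quartile in every array.

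In dividing cells, cyclin D with Cdk4 or Cdk6 and then cyclin E with Cdk2 phosphorylate the retinoblastoma protein, which frees E2F factors to switch on genes of S phase. In G1 the origin recognition complex, Cdc6 and Cdt1 load the MCM helicase onto origins. The kinases Cdc7-Dbf4 and Cdk2 then start the helicase with Cdc45 and GINS, and polymerases, the clamp and its loader follow it. The embryonic mandible is built largely of proliferating neural crest mesenchyme under an epithelium, and its outgrowth at this stage depends on cell division.

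Promoters of such genes are known for E2F binding sites. Letters of such sites were more frequent among the listed genes than among all named genes, though most listed genes lacked them. The rule that chose the genes did not use these letters. Windows of 300 bases, 250 before and 50 after the RefSeq start in build GRCm38.p6, were found for 48 of the 59 genes, and the first listed window stood for a gene with several. The letters TTTCGCGC, TTTGGCGC, TTTCCCGC or TTTGCCGC, on either strand and with overlapping matches counted apart, were in 17 of these 48 windows (35.4%), against 3.29% of the 13345 named genes of the arrays with a window and 2.32% of all 27025 genes with one. The CCAAT letters were in 54.2% of the listed windows, against 38.1% of those of the named genes. The GC box GGGCGG was in 75% of the listed windows, against 53.3% of those of the named genes. The CHR letters TTTGAA or TTCGAA were in 18.8%, against 16.1%. Listed windows had a median GC content of 61.8%, against 58.3% in the named genes, and the part of base composition in these shares was not tested. The windows of 4 MCM genes and of Cdc6 are shown because they hold the E2F letters in different numbers and places; capitals mark the E2F letters or their reverse complement.
Mcm3: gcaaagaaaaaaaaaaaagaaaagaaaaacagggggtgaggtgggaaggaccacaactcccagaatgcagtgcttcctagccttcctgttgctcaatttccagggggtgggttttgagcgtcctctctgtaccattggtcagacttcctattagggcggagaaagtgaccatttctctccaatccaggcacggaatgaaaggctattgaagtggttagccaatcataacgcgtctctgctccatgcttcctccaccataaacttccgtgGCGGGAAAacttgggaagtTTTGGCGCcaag
Mcm5: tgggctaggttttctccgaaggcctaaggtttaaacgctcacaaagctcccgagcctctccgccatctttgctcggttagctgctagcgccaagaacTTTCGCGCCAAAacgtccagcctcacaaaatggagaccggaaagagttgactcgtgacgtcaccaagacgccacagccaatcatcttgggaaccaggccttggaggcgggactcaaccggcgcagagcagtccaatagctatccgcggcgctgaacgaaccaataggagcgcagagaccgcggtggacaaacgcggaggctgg
Mcm7: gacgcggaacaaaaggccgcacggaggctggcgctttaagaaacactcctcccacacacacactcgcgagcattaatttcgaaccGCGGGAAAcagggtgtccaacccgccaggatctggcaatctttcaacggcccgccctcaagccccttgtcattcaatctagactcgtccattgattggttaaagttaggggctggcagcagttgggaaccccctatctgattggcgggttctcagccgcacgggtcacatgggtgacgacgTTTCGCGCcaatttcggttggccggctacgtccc
Mcm6: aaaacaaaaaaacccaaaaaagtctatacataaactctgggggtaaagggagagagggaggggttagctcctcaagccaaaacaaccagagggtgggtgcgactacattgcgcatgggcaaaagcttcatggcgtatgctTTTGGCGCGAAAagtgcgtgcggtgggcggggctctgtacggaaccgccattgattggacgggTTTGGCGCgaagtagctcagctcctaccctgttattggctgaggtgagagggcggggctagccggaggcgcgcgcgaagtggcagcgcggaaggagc
Cdc6: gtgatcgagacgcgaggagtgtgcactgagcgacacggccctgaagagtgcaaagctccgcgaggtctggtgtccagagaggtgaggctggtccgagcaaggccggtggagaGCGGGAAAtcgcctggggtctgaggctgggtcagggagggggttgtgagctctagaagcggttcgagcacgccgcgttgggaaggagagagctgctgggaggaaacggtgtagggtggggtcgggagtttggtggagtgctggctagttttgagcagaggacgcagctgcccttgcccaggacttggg
These windows lie at chr1:20820263-20820562 (minus strand), chr8:75109259-75109558 (plus strand), chr5:138171834-138172133 (minus strand), chr1:128359656-128359955 (minus strand) and chr11:98907901-98908200 (plus strand), in the order printed. In Mcm5 the matches TTTCGCGC and GCGCCAAA overlap and begin 153 and 149 bases before the start. Mcm6 has such a pair 110 and 106 bases before the start and a further TTTGGCGC at 47 bases. In Mcm3 both matches lie after the start, at bases 20 and 39, and in Mcm7 one lies 165 bases before it and the other at base 17 after it. A match is a description of the letters and not a bound site.

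As a group the genes were lower in the Bmp4 OE mandibles. Of the 58 measured genes, 32 fell (limma, adjusted p under 0.05 over all probes), 0 rose and 26 did not pass, while 45 had an unadjusted p under 0.05. Among all 16637 named genes 9.54% fell and 7.39% rose, and 6063 of them had an unadjusted p under 0.05. The log2 fold change was below 0 for 57 of the 58 genes, against 49.7% of all named genes. It was below 0 for 58 when each array was centred on the housekeeping genes, which moved all genes down. Without this centring the median was -0.54, a level 1.45-fold lower, against a median of 0 over all named genes. In 53 of the 58 genes both Bmp4 OE arrays lay below both control arrays, which holds for 32.3% of all named genes, and in 0 they lay above both. The mean log2 intensity over the 58 genes was 11.28 and 11.28 on the Bmp4 OE arrays, against 11.90 and 11.83 on the control arrays. In bulk tissue, fewer cells in S phase and less of each RNA per cell cannot be told apart. Most changes were under 2-fold. By the rule of the series text (2-fold and an unadjusted p under 0.05), 7 of the 58 genes were lower, as were 1.76% of all named genes, and 0 were higher, against 1.56% of all named genes.

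**Figure D1:**
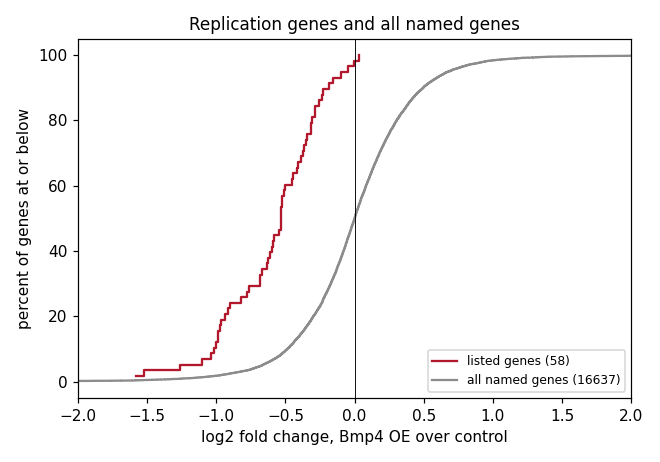
Cumulative percent of genes (y) at or below a log2 fold change of Bmp4 OE over control (x), for the 58 listed genes (red) and all 16637 named genes (grey). The red line reaches its midpoint at -0.54 and the grey line at 0.

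The calls rest on all 4 arrays together. Leaving out Bmp4 OE replicate 1, Bmp4 OE replicate 2, control replicate 1 or control replicate 2 left 1 residual degree of freedom. No probe of the arrays, listed or not, then passed the adjusted threshold. The median log2 fold change of the 58 genes was then -0.59, -0.52, -0.52 and -0.58, with 56, 58, 57 and 57 genes below 0. Over all named genes the median was 0, -0.005, 0.005 and -0.005 in the same order. Split by level, the 29 dimmer and the 29 brighter genes both had a median of -0.54, and 16 of each fell.

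**Figure D2:**
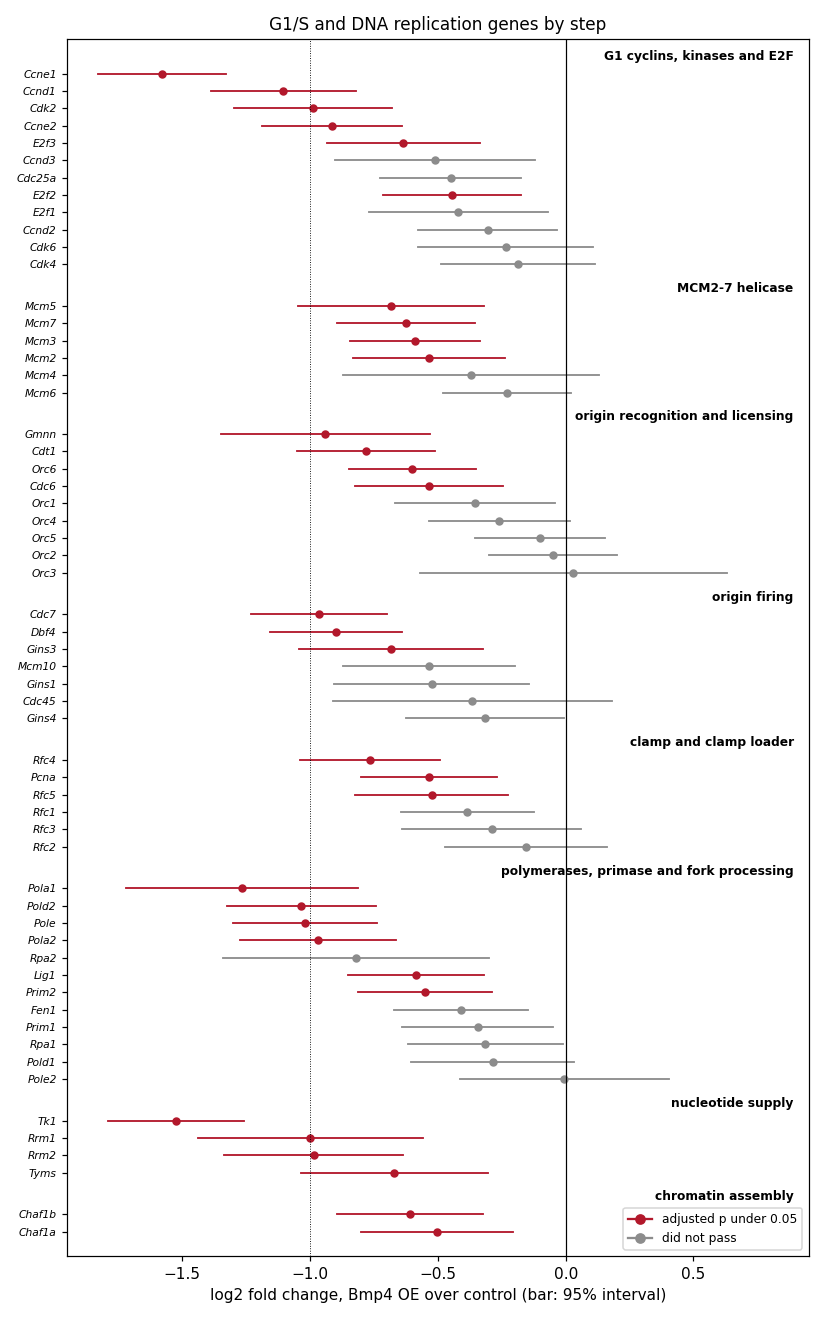
Log2 fold change of Bmp4 OE over control (x, with the 95% interval of the limma fit) for the 58 measured genes, grouped by step and sorted within it (y). Genes in red passed an adjusted p of 0.05, and the dotted line marks a 2-fold fall. Ccne1 and Tk1 lie farthest from 0, and Orc3 is alone on the right of it.

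Among the 12 G1 genes, cyclin E, its kinase and cyclin D1 fell most, and 6 of the 12 fell. Ccne1, the cyclin that activates Cdk2 at S-phase entry, read 9.73 and 9.79 in Bmp4 OE mandibles, against 11.34 and 11.34 in control mandibles. Its fall, 2.99-fold, was the largest of the 58 genes (log2 fold change -1.58 ± 0.10, SE, adjusted p = 0.00302). Ccne2, the second E cyclin, read 9.03 and 9.17 in Bmp4 OE mandibles, against 10.05 and 9.98 in control mandibles (log2 fold change -0.92 ± 0.11, SE, adjusted p = 0.0111). For both E cyclins the arrays of a group lay within 0.14 of each other and the groups were far apart. Cdk2, the kinase partner of cyclins E and A, read 11.54 and 11.33 in Bmp4 OE mandibles, against 12.36 and 12.49 in control mandibles (log2 fold change -0.99 ± 0.12, SE, adjusted p = 0.0119). The fall of Cdk2, 1.99-fold, was close to that of Ccne2.

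The D cyclins, which bind Cdk4 and Cdk6 and respond to mitogens, did not all pass. Ccnd1 read 13.17 and 13.35 in Bmp4 OE mandibles, against 14.34 and 14.39 in control mandibles (log2 fold change -1.11 ± 0.11, SE, adjusted p = 0.00842), and its other 3 probes also fell, with log2 fold changes of -1.36, -1.31 and -1.17. Ccnd2 read 12.08 and 12.23 in Bmp4 OE mandibles, against 12.46 and 12.46 in control mandibles (log2 fold change -0.31 ± 0.11, SE, adjusted p = 0.118). Ccnd3 read 13.42 and 13.05 in Bmp4 OE mandibles, against 13.83 and 13.66 in control mandibles (log2 fold change -0.51 ± 0.16, SE, adjusted p = 0.0853). In both Ccnd2 and Ccnd3 the Bmp4 OE arrays lay below the controls, but neither passed over all probes. The 95% intervals were -0.58 to -0.03 for Ccnd2 and -0.90 to -0.12 for Ccnd3. The kinase genes Cdk4 and Cdk6 had log2 fold changes of -0.19 (95% interval -0.49 to 0.12) and -0.24 (95% interval -0.58 to 0.11). Cdk4 averaged 15.51 in Bmp4 OE mandibles and 15.69 in control mandibles, on a scale that ends at 16.

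Of the activator E2F genes, E2f3 and E2f2 fell at their brightest probes (-0.64 and -0.45 on the log2 scale, adjusted p = 0.0284 and 0.0496). The other E2f2 probes had -0.24 and -0.16 and did not pass (limma, adjusted p = 0.170 and 0.428). E2f1, at -0.42, did not pass (adjusted p = 0.102). Cdc25a, the phosphatase that activates Cdk2, had -0.45 and lay just outside the threshold (adjusted p = 0.0508), while E2f2 lay just inside it.

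**Figure D3:**
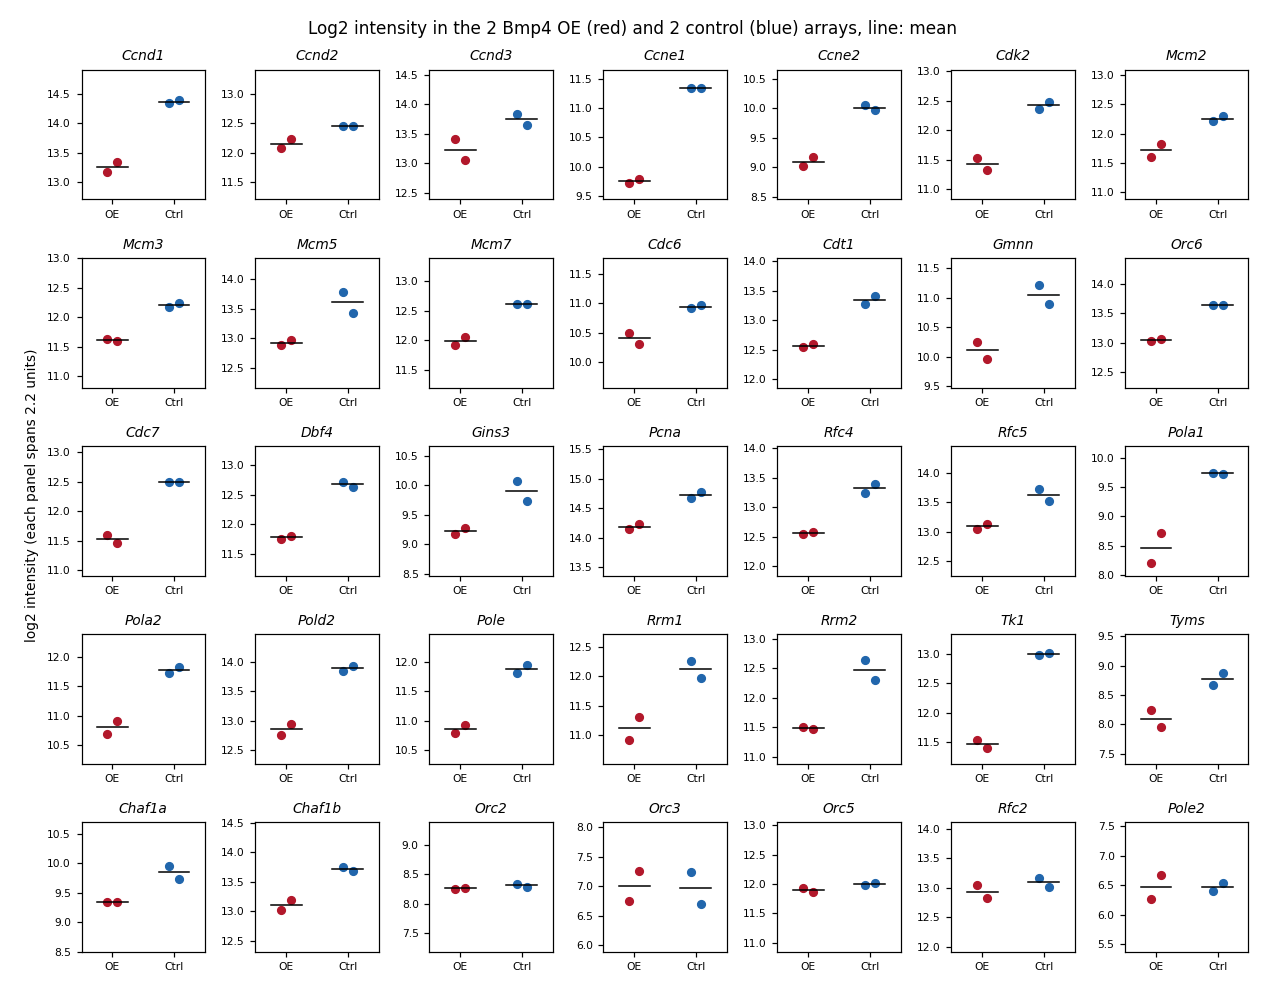
Log2 intensity (y) in each of the 2 Bmp4 OE arrays (red, left) and 2 control arrays (blue, right) for 35 genes, most of them picked for a small p, with the D and E cyclins and the 5 genes nearest to 0 (last panels), the group means as lines and 2.2 log2 units in every panel. Both red points lie below both blue points in 32 panels, which the choice of genes largely fixed (53 of all 58 genes and 32.3% of all named genes), and the groups overlap in Orc3, Rfc2 and Pole2.

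Of the 6 subunits of the MCM ring, which unwinds DNA ahead of the fork, 4 fell by similar amounts. Mcm3 read 11.63 and 11.60 in Bmp4 OE mandibles, against 12.17 and 12.24 in control mandibles (log2 fold change -0.59 ± 0.10, SE, adjusted p = 0.0236). Mcm7 read 11.91 and 12.06 in Bmp4 OE mandibles, against 12.61 and 12.61 in control mandibles (log2 fold change -0.63 ± 0.11, SE, adjusted p = 0.0240). Neither gene had more than 0.15 between arrays of a group. Mcm5 read 12.88 and 12.96 in Bmp4 OE mandibles, against 13.78 and 13.43 in control mandibles (log2 fold change -0.69 ± 0.15, SE, adjusted p = 0.0372). Mcm2 read 11.61 and 11.82 in Bmp4 OE mandibles, against 12.21 and 12.29 in control mandibles (log2 fold change -0.54 ± 0.12, SE, adjusted p = 0.0416). Mcm5 thus had the largest estimate of the ring and the widest spread of these 4, with 0.35 between its control arrays. Mcm6 had a log2 fold change of -0.23 with an interval of -0.48 to 0.02, and Mcm4 had -0.37, and its groups overlapped. The Mcm6 window held 3 E2F matches and those of Mcm3, Mcm5 and Mcm7 held 2 each, while that of Mcm2, which also fell, held 0.

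Licensing factors fell while most of the origin recognition complex did not pass, a difference that was not tested. Cdt1, which brings MCM to the origin, read 12.55 and 12.59 in Bmp4 OE mandibles, against 13.28 and 13.42 in control mandibles (log2 fold change -0.78 ± 0.11, SE, adjusted p = 0.0147). Gmnn encodes geminin, the inhibitor of Cdt1, and read 10.26 and 9.96 in Bmp4 OE mandibles, against 11.21 and 10.89 in control mandibles (log2 fold change -0.94 ± 0.16, SE, adjusted p = 0.0242). The loading factor and its inhibitor were thus both lower, by 1.72-fold and 1.92-fold. Cdc6, the ATPase that loads MCM together with Cdt1, read 10.50 and 10.30 in Bmp4 OE mandibles, against 10.91 and 10.96 in control mandibles at its brightest probe (log2 fold change -0.54 ± 0.12, SE, adjusted p = 0.0393).

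Orc6, the smallest and least conserved subunit of the origin recognition complex, read 13.03 and 13.06 in Bmp4 OE mandibles, against 13.64 and 13.65 in control mandibles (log2 fold change -0.60 ± 0.10, SE, adjusted p = 0.0218). It was the 1 of the 6 ORC genes that passed. Orc2 read 8.25 and 8.27 in Bmp4 OE mandibles, against 8.33 and 8.29 in control mandibles, Orc5 read 11.93 and 11.87 in Bmp4 OE mandibles, against 11.98 and 12.02 in control mandibles, and their log2 fold changes of -0.05 and -0.10 did not pass. Orc3 read 6.75 and 7.25 in Bmp4 OE mandibles, against 7.24 and 6.70 in control mandibles, and it was the 1 gene of the 58 with a log2 fold change above 0, at 0.03 with an interval of -0.57 to 0.63 (-0.052 when each array was centred on the housekeeping genes). Its groups overlapped, and its values lay close to 6.79, the lower quartile. Orc4 and Orc1 had -0.26 and -0.36 and did not pass. Orc1 also lay close to the lower quartile, with 6.82 and 6.76 in Bmp4 OE arrays, against 7.27 and 7.02 in control arrays. The interval of Orc1 was -0.67 to -0.04. The intervals of Orc2 and Orc5 were -0.30 to 0.20 and -0.35 to 0.15.

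For origin firing, the kinase and its activating subunit fell together. Cdc7 read 11.59 and 11.46 in Bmp4 OE mandibles, against 12.49 and 12.49 in control mandibles (log2 fold change -0.97 ± 0.11, SE, adjusted p = 0.00933). Dbf4, the regulatory subunit that Cdc7 needs, read 11.75 and 11.81 in Bmp4 OE mandibles, against 12.72 and 12.64 in control mandibles (log2 fold change -0.90 ± 0.10, SE, adjusted p = 0.0101). The folds of this pair, 1.95 and 1.87, were among the larger of the list. Gins3, a GINS subunit, read 9.18 and 9.27 in Bmp4 OE mandibles, against 10.08 and 9.74 in control mandibles (log2 fold change -0.69 ± 0.14, SE, adjusted p = 0.0365). Gins1, Gins4, Mcm10 and Cdc45, which join the helicase at the origin, had -0.53, -0.32, -0.54 and -0.37 and did not pass. Of these, the groups overlapped in Cdc45, whose Bmp4 OE arrays read 11.72 and 11.13, against 11.93 and 11.65 in control arrays.

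The sliding clamp and part of its loader fell. Pcna, the clamp that holds polymerases on DNA, read 14.15 and 14.23 in Bmp4 OE mandibles, against 14.67 and 14.78 in control mandibles (log2 fold change -0.54 ± 0.11, SE, adjusted p = 0.0324). Rfc4, a loader subunit, read 12.54 and 12.58 in Bmp4 OE mandibles, against 13.25 and 13.40 in control mandibles (log2 fold change -0.77 ± 0.11, SE, adjusted p = 0.0156). Rfc5, another, read 13.05 and 13.13 in Bmp4 OE mandibles, against 13.72 and 13.51 in control mandibles (log2 fold change -0.53 ± 0.12, SE, adjusted p = 0.0435). The Bmp4 OE arrays of all 3 genes lay within 0.08 of each other and below both controls. Rfc1, the large subunit, and Rfc3 had -0.39 and -0.29 and did not pass. Rfc2 read 13.05 and 12.83 in Bmp4 OE mandibles, against 13.17 and 13.02 in control mandibles at its brightest probe, with overlapping groups, and did not pass (log2 fold change -0.16 ± 0.13, SE, adjusted p = 0.450), but its dimmer probe fell.

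Subunits of each replicative polymerase fell, by 1.96-fold to 2.40-fold in the genes with the smallest p. Pola1, the catalytic subunit of polymerase alpha, which starts each new strand with primase, read 8.21 and 8.72 in Bmp4 OE mandibles, against 9.74 and 9.72 in control mandibles (log2 fold change -1.27 ± 0.18, SE, adjusted p = 0.0158). Its partner Pola2 read 10.70 and 10.91 in Bmp4 OE mandibles, against 11.72 and 11.83 in control mandibles (log2 fold change -0.97 ± 0.12, SE, adjusted p = 0.0120). The Bmp4 OE arrays of Pola1 were 0.51 apart, the widest of the genes that fell in this step, and still lay below both controls. Pold2, the second subunit of polymerase delta, read 12.76 and 12.95 in Bmp4 OE mandibles, against 13.85 and 13.93 in control mandibles (log2 fold change -1.04 ± 0.12, SE, adjusted p = 0.00966). Pole, the catalytic subunit of polymerase epsilon, read 10.80 and 10.93 in Bmp4 OE mandibles, against 11.82 and 11.95 in control mandibles (log2 fold change -1.02 ± 0.11, SE, adjusted p = 0.00946). The catalytic subunit of polymerase delta, Pold1, had -0.29 and did not pass, with an interval of -0.60 to 0.03. Pole2 read 6.26 and 6.68 in Bmp4 OE mandibles, against 6.41 and 6.54 in control mandibles, below the lower quartile in every array, with a log2 fold change of -0.005 (interval -0.42 to 0.41).

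In the rest of the fork, Prim2, the large primase subunit, and Lig1, which seals Okazaki fragments, fell (-0.55 and -0.59 on the log2 scale, adjusted p = 0.0296 and 0.0265). The primase subunit gene Prim1 had -0.35, the flap nuclease gene Fen1 -0.41 (adjusted p = 0.0572) and the single-strand binding gene Rpa1 -0.32, and none of these passed. Rpa2, of the same binding complex, had the largest estimate of the genes that did not pass, -0.82, with Bmp4 OE arrays 0.61 apart (adjusted p = 0.0560).

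All 4 genes of deoxynucleotide supply fell, with a median log2 fold change of -0.99, the lowest median of the 8 steps. Tk1, the S-phase thymidine kinase, read 11.54 and 11.41 in Bmp4 OE mandibles, against 12.98 and 13.02 in control mandibles (log2 fold change -1.53 ± 0.11, SE, adjusted p = 0.00364), a 2.88-fold fall. Rrm1, the large subunit of ribonucleotide reductase, read 10.92 and 11.32 in Bmp4 OE mandibles, against 12.26 and 11.98 in control mandibles (log2 fold change -1 ± 0.18, SE, adjusted p = 0.0246). Rrm2, the small subunit that is made in S phase, read 11.51 and 11.47 in Bmp4 OE mandibles, against 12.64 and 12.31 in control mandibles (log2 fold change -0.99 ± 0.14, SE, adjusted p = 0.0155). Both subunits of the enzyme were thus lower by close to 2-fold. Tyms, thymidylate synthase, read 8.25 and 7.95 in Bmp4 OE mandibles, against 8.67 and 8.87 in control mandibles (log2 fold change -0.67 ± 0.15, SE, adjusted p = 0.0393). The difference between this step and the others was not tested. Both chromatin assembly genes, whose products place histones behind the fork, also fell. Chaf1b read 13.02 and 13.20 in Bmp4 OE mandibles, against 13.75 and 13.69 in control mandibles (log2 fold change -0.61 ± 0.11, SE, adjusted p = 0.0280). Chaf1a read 9.34 and 9.35 in Bmp4 OE mandibles, against 9.96 and 9.74 in control mandibles (log2 fold change -0.51 ± 0.12, SE, adjusted p = 0.0465).

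Other probes of the same genes gave a second reading. A further 17 probes read 12 of the genes, and 16 of the 17 had a log2 fold change below 0. Of the 17, 10 fell, 0 rose and 7 did not pass, while of all 4383 probes other than the brightest of a named gene 10.7% fell and 3.51% rose. The other probes of Cdc6 fell more than its brightest, with -1.23 and -1.18 against -0.54, and so did that of Rfc5, with -1.02 against -0.53. The dimmer probe of Rfc2 read 8.61 and 8.95 in Bmp4 OE mandibles, against 9.69 and 9.80 in control mandibles and fell (-0.97, adjusted p = 0.0175), where the brightest did not pass. In the other direction, the second probes of Tk1, Ccne2 and Tyms gave -0.78, -0.53 and -0.27, and only that of Tk1 passed. The dimmest E2f3 probe was at 0.01, while the middle one gave -0.77 and passed. In all, 10 other probes gave a larger fall than the brightest probe of their gene and 7 a smaller one. The stretch of transcript that each probe reads is not given in the sources used here.

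**Figure D4:**
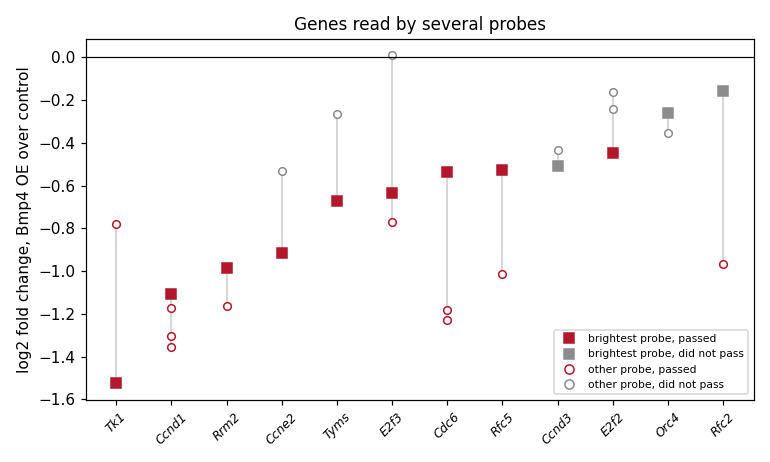
Log2 fold change of Bmp4 OE over control (y) for every probe of the 12 genes with several probes (x), the brightest probe as a square and the others as circles, in red where the adjusted p was under 0.05. The 4 probes of Ccnd1 lie close together, and the probes of Cdc6, Rfc2, Rfc5, E2f3 and Tk1 lie apart. A dimmer probe fell more than the brightest in Cdc6, Rfc2 and Rfc5, and a dimmer probe fell less in E2f3 and Tk1.

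Related genes outside the list were read as 5 further lists. Their counts stand beside the 9.54% of all named genes that fell and the 7.39% that rose. Of 30 other genes of the replication fork and its checkpoints, 16 fell, 1 rose and 13 did not pass, with a median of -0.45. Ticrr, which recruits Cdc45 to origins, Recql4, a helicase of replication start, Chek1, the checkpoint kinase, and Cdc25c, a phosphatase of mitotic entry, had log2 fold changes of -1.52, -1.33, -1.25 and -1.11. Pold4, the smallest subunit of polymerase delta, rose by 0.69 on the log2 scale (adjusted p = 0.0209). Of the other polymerase delta genes, Pold2 and Pold3 fell (Pold3, named after its value was seen, by 0.51 on the log2 scale, adjusted p = 0.0309) and Pold1 did not pass.

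Among 18 genes of nucleotide synthesis outside the list, 8 fell, 1 rose and 9 did not pass, with a median of -0.48. Umps and Cad of pyrimidine synthesis and Shmt1 and Mthfd2 of folate metabolism had -1.22, -0.85, -1.15 and -0.95. The gene that rose was Dck, deoxycytidine kinase of nucleoside salvage, by 1.39 on the log2 scale (adjusted p = 0.00404). It read 13.49 and 13.43 in Bmp4 OE mandibles, against 12.09 and 12.05 in control mandibles. Of the salvage kinases, Tk1 thus fell and Dck rose.

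Of 14 pocket proteins, other E2F factors and their partners, 4 fell and 10 did not pass, with a median of -0.32. Tfdp1, the dimer partner of E2F factors, Lin54, a DNA-binding subunit of the MuvB complex, and E2f6 and E2f4, which act as repressors, fell by 0.83, 0.83, 0.69 and 0.56 on the log2 scale. Rb1, the retinoblastoma gene, had -0.03 and did not pass. Of 12 genes of histone supply and S-phase chromatin, 2 fell, the histone acetyltransferase gene Hat1 (-0.51) and the histone chaperone gene Asf1b (-1.19), and 10 did not pass, with a median of -0.17. Dnmt1, the maintenance DNA methyltransferase, had -0.04. Of 22 mitotic genes 19 fell and 3 did not pass, and their median, -0.90, was lower than that of the 58 genes, a difference that was not tested.

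**Figure D5:**
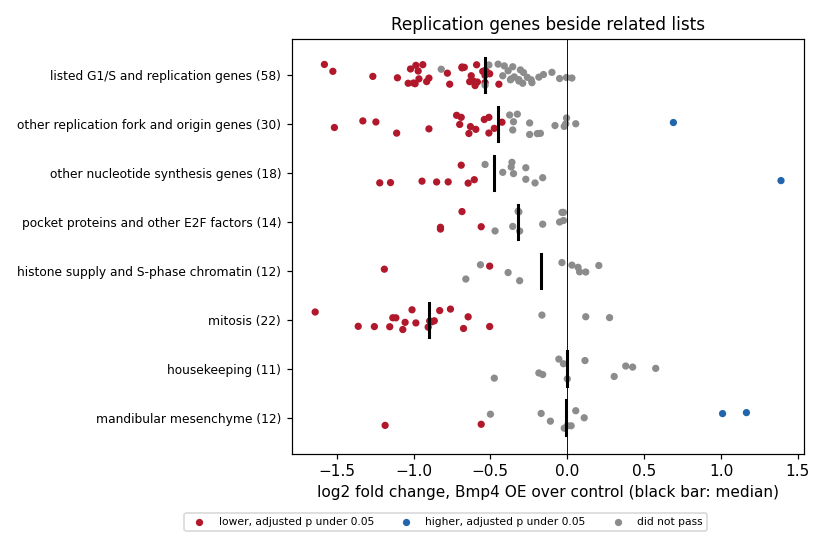
Log2 fold change of Bmp4 OE over control (x) of each measured gene in the 58-gene list and 7 further lists (y, number of genes in brackets), red where lower and blue where higher at an adjusted p of 0.05, with the list median as a black bar. The medians run between -0.90 for mitosis and 0 for housekeeping genes.

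Levels of other markers were read beside these falls. Of 11 housekeeping genes, 0 rose and 0 fell (limma, 3 with an unadjusted p under 0.05), and of 12 markers of mandibular mesenchyme 2 rose and 2 fell, with a mean log2 intensity of 12.32 to 12.37 in Bmp4 OE arrays, against 12.33 to 12.39 in control arrays. These counts and the marker counts that follow stand beside the 7.39% of all named genes that rose and the 9.54% that fell. In the marker lists that follow, 1 gene is over 9.54% of the list. Macrophage markers were higher in 4 of 8 genes, with a mean of 8.48 to 8.53 in Bmp4 OE arrays, against 7.96 to 7.99 in control arrays. Neuronal markers were higher in 2 of 10 genes (9.27 to 9.39 in Bmp4 OE arrays, against 8.80 to 8.88 in control arrays) and muscle markers in 3 of 9 (9.25 to 9.36, against 8.92 to 8.95). Pericyte markers were higher in 3 of 7 genes and lower in 1 (9.62 to 9.72, against 8.999 to 9.13), epithelial markers higher in 3 of 9 and lower in 2 (10.68 to 10.83, against 10.47 to 10.56), and endothelial markers higher in 1 of 8 (10.06 to 10.12, against 9.79 to 9.83). Erythroid markers were lower in 2 of 8 genes, Alas2 and Klf1 (11.77 to 11.85, against 12.02 to 12.04). The part of these cell types in the falls of the replication genes was not tested. No list was at the floor of the scale as a whole. Of the cell type markers, Ptprc, a pan-leukocyte gene, and Epb42, Pou4f1 and Ckm lay below the lower quartile in every array. Of the related lists, Nek2, Atad5 and Casp8ap2 did so.

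Within the list, genes with and without the E2F letters were much alike in their change, and the difference was not tested. The median log2 fold change was -0.54 for the 17 listed genes with the letters and -0.54 for the 31 without them, and 10 of the 17 and 17 of the 31 fell. Among named genes outside the list, 422 had the letters in their window, and 12.1% of them fell and 4.98% rose, with a median of -0.10. Of the 12875 without the letters, 9.27% fell and 7.29% rose, with a median of 0.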

How the data were processed

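Per the labels' protocols, total RNA was amplified with aminoallyl nucleotides and the product was dyed with Cy5. The deposited table holds 1 log2 intensity for each of 29922 probes on 4 arrays. Their maximum of 16, the top of a 16-bit scale, gave the log base. Once sorted, all columns hold the same values, so the authors' log2 values were already quantile-normalised, which hides a shift of most genes. The sources used here do not give the scanner, the background correction or the software. The number of arrays limits the precision.

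Of the probes, 21020 carried 1 gene symbol in the platform annotation, 0 several and 8902 none. Of the symbols, 3410 were updated through synonyms in the GRCm38.p6 RefSeq table, those of the ORC genes and Cdc45 among them, and 52 had no match. Every probe was fitted in R 4.3.3 by limma 3.58.1 (lmFit, then eBayes, no trend, no filter, two-sided, 2 residual and 3.59 prior degrees of freedom), with Benjamini-Hochberg adjustment over all probes. All adjusted p-values in the text come from this fit unless another setting is named. With 2 arrays in each group, exact permutation gives no p under 0.333.

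The members and lists were chosen with earlier results of these data known. Values by array are given for up to 4 genes of each step with the smallest p among those that passed, for the D and E cyclins and for the 5 genes nearest to 0. From other lists up to 4 genes with the smallest p were named, with any that passed in the other direction; the rest were chosen after their values were seen. RefSeq windows were searched for letters on both strands. Alternatives were a repeated quantile normalisation, centring on the median or on housekeeping genes, adding 50 to the linear value, removal of dim probes, a variance trend, a robust prior, a replicate block, the mean of all probes of a gene, and leaving out each array.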

Additional observations from a re-analysis of the deposited data

How the results depend on the processing

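Quantile normalisation, median centring, adding 50 to the linear value, removing probes below the lower quartile or the median, a variance trend, a robust prior and the mean of all probes gave between 32 and 38 falls among the listed genes, 0 rises and a median log2 fold change of -0.53 to -0.54. Under these settings 55 to 58 listed genes were left in the fit, and 9.24% to 15.4% of all named genes left in it fell. Quantile normalisation and median centring could change nothing, because the arrays already shared the same distribution, so they test nothing. The 32 falls all remained except that 31 did with a variance trend and 30 with the mean of all probes. Centring on the housekeeping genes, chosen after the data were seen, gave 39 falls, a median of -0.62, 12 genes past the study's threshold against 7, and Orc3 at -0.052. The share of all named genes past the study's threshold was not counted for this centring, so the 12 cannot be read against it. This centring moved all genes down. Over all named genes the median was -0.08, against 0 in the main fit, and 13.3% fell, against 9.54%. With the replicate block, 1 residual degree of freedom was left and 0 probes of the whole arrays passed the adjusted threshold, so 0 listed genes fell. The lowest adjusted p of the listed genes was 0.0745 (limma). An unadjusted p under 0.05 was found for 45 of them, a count not made over all named genes for this setting. The log2 fold change of Bmp4 stayed at 3.28. Same-numbered arrays did not deviate together (r = -0.07 across probes), so the numbers only name the arrays. Leaving out 1 array at a time left 1 residual degree of freedom, and the calls did not hold. Why they were lost was not tested. The median of the listed genes was then -0.59 to -0.52, and the Bmp4 log2 fold change was 3.22 to 3.33. Orc3 then turned to -0.22 without Bmp4 OE replicate 2 and -0.24 without control replicate 2 (range -0.24 to 0.30), and Pole2 to 0.21 without Bmp4 OE replicate 1 and 0.06 without control replicate 2. Signal over background is not given in the sources used here. Pole2 lay below the lower quartile of 6.79 in every array, and Cdk4 was the 1 listed gene above 15 in the controls.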
